A study of Mus musculus with 6 samples.

Results

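The genes described are 8 genes of bile acid handling in the mouse intestine: Slc10a2, Fabp6, Slc51a, Slc51b, Nr1h4, Nr0b2, Fgf15 and Gpbar1. They were taken by name as bile acid transport, farnesoid X receptor (FXR) and ileal genes, and all 8 were found among the 24736 genes of the expression table. RNA was sequenced from intestinal crypts, the epithelial glands that hold the stem cells, of WT and Mtg16−/− mice, to ask how crypt gene expression differs when the transcriptional co-repressor MTG16 is missing. Each genotype was measured in biological triplicate, in males aged 12 weeks, and WT mice received no treatment. Crypts were released with cold EDTA from the full length of the gut, and ribosomal RNA was depleted before library preparation. The labels describe the knockout as induced with CRISPR, the study's methods describe an Mtg16−/− line received from another laboratory, and which of these applies could not be settled. Strain was not given in the sources used here. Levels are in TPM, the share of each library that a gene takes after scaling by transcript length, so levels can be set side by side between genes. TPM keeps no record of sequencing depth, so the number of reads behind each value is unknown.

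Bile acids are made in the liver, released into the duodenum and recovered mainly in the distal ileum. In ileal enterocytes SLC10A2 (ASBT) carries them in from the lumen, FABP6 binds them in the cytosol and the SLC51A–SLC51B heterodimer releases them on the basolateral side. FXR, encoded by Nr1h4, senses them in the nucleus and induces Nr0b2 (SHP) and Fgf15, a hormone that lowers bile acid synthesis in the liver, while GPBAR1 (TGR5) senses them at the cell surface.

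The targeted gene came first. Cbfa2t3, which encodes MTG16, was at 3.67, 6.69 and 4.52 TPM in WT 1, 2 and 3 and at 4.62, 6.43 and 3.23 TPM in Mtg16−/− 1, 2 and 3. The groups overlapped, and gene-level TPM does not show which exons the reads came from, so this gene did not check the genotype labels. Every direction below is therefore a difference of libraries labelled Mtg16−/− from libraries labelled WT.

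Epithelial markers were high in every library, with Krt8 between 2779 and 3310 TPM, and summed TPM of 10 stromal, muscle and vessel markers was between 14.6 and 22.8. WT 1 stood apart from the other libraries: on the first principal component, which held 47.7% of the variance, it lay at 47.7, WT 3 at 6.30, and Mtg16−/− 1, 2 and 3 at 0.897, −20.5 and −36.3, with WT 2 between Mtg16−/− 1 and WT 3. Mtg16−/− 3 was at the other end of that component. Differences of the bile acid genes are given with and without WT 1.

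Where the mean over the 6 libraries reached 1 TPM, 12268 genes were tested, of which 2 were higher and 2 lower in libraries labelled Mtg16−/− at an adjusted p under 0.1 (limma on log2(TPM + 1), two-sided), which is 0.0163% in each direction. Of the 8 bile acid genes 6 reached that mean, and 0 of these 6 were called. At an unadjusted p under 0.05 limma listed 1789 of the 12268 genes, and 0 of the 6 were among them. The groups overlapped for all 6, where 9.94% of tested genes were higher and 11.1% lower without overlap. The differences were positive for Fabp6, Nr1h4 and Fgf15 and negative for Slc10a2, Slc51a and Slc51b, with a median of 0.016 against −0.026 over all tested genes. Differences on the log2(TPM + 1) scale understate those of low genes. The 4 called genes, named after their values were seen, were Ces1c and Cirbp (higher) and Creld2 and Klhdc4 (lower), with differences of 2.12, 1.22, −1.15 and −1.32 and an adjusted p of 0.0894 each. This count depended on single libraries: it was 40, 4 and 9 without WT 1, 2 and 3, and 1, 2 and 0 without Mtg16−/− 1, 2 and 3. It also depended on the weight given to each library: with array weights limma called 3.43% higher and 3.54% lower, with 0 of the 6 bile acid genes among them. With a replicate block, which sets libraries of the same number together, limma called 385 genes higher and 816 lower. Slc51b and Fgf15 were among them (limma adjusted p = 0.0402 and 0.0713). Neither passed with the block and no minimum (limma adjusted p = 0.1001 and 0.143), and the labels link the libraries by number only.

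**Figure D1:**
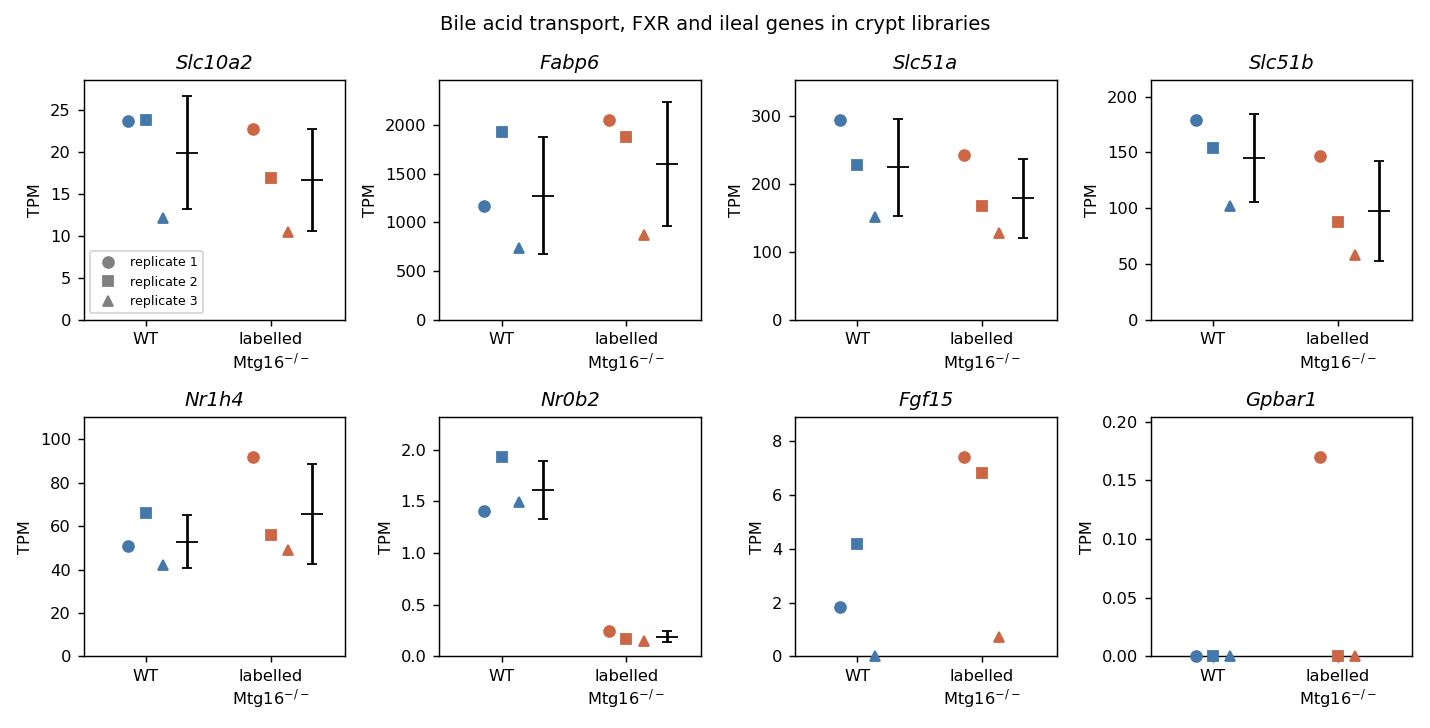
TPM (vertical axes, linear) of the 8 genes in each library, with WT libraries in blue, libraries labelled Mtg16−/− in orange and the replicate number shown by the symbol; black bars are the mean ± SD of 3 libraries, left out for Fgf15 and Gpbar1, which have values listed at 0. Nr0b2 lies between 1.41 and 1.93 in WT and between 0.15 and 0.25 in libraries labelled Mtg16−/−, while the groups overlap for the other genes.

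Slc10a2 (chr8:5083219-5105287, GRCm38.p6), the apical uptake carrier, was at 23.8, 23.9 and 12.1 TPM in WT 1, 2 and 3. It was at 22.7, 16.9 and 10.5 TPM in Mtg16−/− 1, 2 and 3. WT 1, WT 2 and Mtg16−/− 1 were close to each other, the libraries numbered 3 were the lowest of their groups, and the groups overlapped. WT averaged 19.9 ± 6.75 (SD, n = 3), against 16.7 ± 6.11 (SD, n = 3) for libraries labelled Mtg16−/−. The log2 difference was −0.24 (SE 0.33, 95% interval −0.997 to 0.514, limma adjusted p = 0.744), smaller than its error. It turned to 0.038 without Mtg16−/− 3, was −0.090 without WT 1 and reached −0.55 without WT 3. With array weights it turned to 0.17.

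Fabp6 (chr11:43596040-43601562), the cytosolic bile acid binding protein, was by far the most abundant of the 8 genes. Its levels were 1168, 1926 and 735 TPM in WT 1, 2 and 3 and 2056, 1880.4 and 869 TPM in Mtg16−/− 1, 2 and 3. WT 2 was level with the 2 higher libraries labelled Mtg16−/−, WT 3 and Mtg16−/− 3 were both low, and the groups overlapped. The mean over the 6 libraries, 1439 TPM, was above that of 99.6% of the genes in the table. The group means were 1276 ± 603 (SD, n = 3) and 1602 ± 640.3 (SD, n = 3). The log2 difference was 0.34 (SE 0.42, 95% interval −0.64 to 1.32, limma adjusted p = 0.720), and it was −0.0017 without WT 3 and 0.73 without Mtg16−/− 3. Without WT 1 it was 0.33, and with array weights it was 0.84 (limma adjusted p = 0.227).

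Slc51a and Slc51b encode the 2 subunits of the basolateral exporter. Slc51a (chr16:32475578-32487879) was at 294, 228 and 151 TPM in WT 1, 2 and 3 and at 242, 166 and 127 TPM in Mtg16−/− 1, 2 and 3. Mtg16−/− 1 was above WT 2, and only Mtg16−/− 3 was below every WT library. Slc51b (chr9:65412753-65422773) was at 179, 154 and 102 TPM in WT 1, 2 and 3 and at 147, 87.5 and 57.8 TPM in Mtg16−/− 1, 2 and 3. Here 2 of the 3 libraries labelled Mtg16−/− were below every WT library, and Mtg16−/− 1 lay between WT 2 and WT 3. The means of Slc51a were 224 ± 71.5 and 178 ± 58.4 TPM, and those of Slc51b 145 ± 39.3 and 97.3 ± 45.2 TPM (SD, n = 3 each). The log2 difference was −0.33 for Slc51a (SE 0.29, 95% interval −1.01 to 0.35, limma adjusted p = 0.605). It was −0.63 for Slc51b (SE 0.34, 95% interval −1.42 to 0.15, limma adjusted p = 0.414), the largest negative difference of the 6 tested genes. Leaving out 1 library moved both ways: Slc51a ran from −0.109 (without Mtg16−/− 3; −0.108 without WT 1) to −0.586 (without WT 3; −0.572 without Mtg16−/− 1). Slc51b ran from −0.32 (without Mtg16−/− 3; −0.46 without WT 1) to −0.98 (without Mtg16−/− 1; −0.87 without WT 3). With array weights Slc51a turned to 0.012 and Slc51b was −0.31. In bulk crypts, fewer cells that express a gene and less of its RNA per cell cannot be told apart.

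Slc51a was above Slc51b in all 6 libraries. The ratio of their TPM was 1.64, 1.48 and 1.48 in WT 1, 2 and 3 and 1.65, 1.902 and 2.19 in Mtg16−/− 1, 2 and 3. The lowest ratio in libraries labelled Mtg16−/− barely passed the highest in WT, and the other 2 were clearly above. On the log2(TPM + 1) scale WT had a ratio of 0.61 ± 0.085 (SD, n = 3), against 0.92 ± 0.20 (SD, n = 3) for libraries labelled Mtg16−/−, a difference of 0.31. The exact permutation p was 0.1 (two-sided), the smallest this test can give with 3 against 3 libraries, so it cannot reach 0.05, and over the 4 ratios computed the adjusted value was 0.2.

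Nr1h4 (chr10:89454234-89533645), the gene of FXR, was at 50.9, 66.1 and 41.9 TPM in WT 1, 2 and 3. It was at 92.0, 55.9 and 48.9 TPM in Mtg16−/− 1, 2 and 3. Mtg16−/− 1 was high and the other 2 lay inside the WT range. The means were 53.0 ± 12.2 (SD, n = 3) and 65.6 ± 23.1 (SD, n = 3) TPM. The log2 difference was 0.27 (SE 0.26, 95% interval −0.32 to 0.87, limma adjusted p = 0.623), and it was 0.0065 without Mtg16−/− 1 and 0.46 without Mtg16−/− 3. Without WT 1 it was 0.26.

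Nr0b2 (chr4:133553376-133556686) encodes SHP, a receptor without a DNA-binding domain that represses bile acid synthesis genes in liver. It was at 1.41, 1.93 and 1.49 TPM in WT 1, 2 and 3 and at 0.25, 0.17 and 0.15 TPM in Mtg16−/− 1, 2 and 3. All 3 libraries labelled Mtg16−/− were below all 3 WT libraries, with a gap between 0.25 and 1.41 TPM. The means were 1.61 ± 0.28 (SD, n = 3) and 0.19 ± 0.053 (SD, n = 3) TPM, a ratio of 8.47 between WT and libraries labelled Mtg16−/−. Its mean over the 6 libraries was 0.90 TPM, just under the minimum of 1, so it was not among the genes tested. The difference of mean log2(TPM + 1) was −1.13, and −2.56 with a pseudocount of 0.1. It was −1.18 without WT 1. With no minimum, 17505 of the 24736 genes were tested, and genes listed at 0 in all 6 libraries, such as Cyp7a1, were not. In that fit the limma adjusted p of Nr0b2 was 0.130. Over all alternatives that gave it a test it ran from 0.0548 to 0.590. Some of these tests exist only because of the difference itself: at the minimum of 1 it was tested only when a library labelled Mtg16−/−, where it is low, was left out. At a minimum of 0.5, a choice made after seeing the data, it passed only through WT, where it is high, so its place in the next counts is a description and not a test. At the minimum of 0.5, where 7 of the 8 genes were tested, 0 of the 7 were called. Of the 13163 genes tested there, 2 were called higher and 1 lower (0.0076%). Among the 7 genes, 1, Nr0b2, was lower without overlap, against 10.9% of those 13163 genes.

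Nr0b2 was set against its inducing receptor within each library. The ratio of Nr0b2 to Nr1h4 TPM was 0.0277, 0.0292 and 0.0355 in WT 1, 2 and 3 and 0.00272, 0.00304 and 0.00307 in Mtg16−/− 1, 2 and 3. The groups did not overlap, and Mtg16−/− 1, with the highest Nr1h4, had the lowest ratio. Nr0b2 did not overlap on its own and Nr1h4 did, so the ratio repeats the gap already given for Nr0b2. It is a description and not a second result. On the log2(TPM + 1) scale the ratio was −4.35 ± 0.22 (SD, n = 3) and −5.75 ± 0.41 (SD, n = 3), a difference of −1.40, or −2.84 with a pseudocount of 0.1 (exact permutation p = 0.1, two-sided, the smallest possible; 0.2 adjusted over 4 ratios).

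Fgf15 (chr7:144896532-144900953), the ileal hormone, was at 1.84 and 4.18 TPM in WT 1 and 2 and listed at 0 in WT 3. It was at 7.42, 6.80 and 0.71 TPM in Mtg16−/− 1, 2 and 3. Mtg16−/− 1 and 2 were above every WT library, Mtg16−/− 3 was below WT 1 and 2, and the libraries numbered 3 were the lowest of both groups. The log2 difference was 0.98 with a wide error (SE 0.75, 95% interval −0.74 to 2.70, limma adjusted p = 0.544). It was 0.33 without WT 3, 1.73 without Mtg16−/− 3 and 1.08 without WT 1, and 1.89 with a pseudocount of 0.1. With array weights it was 1.995 (95% interval 0.487 to 3.503, limma adjusted p = 0.133). The log2(TPM + 1) ratio of Fgf15 to Nr1h4 was −4.19, −3.69 and −5.42 in WT 1, 2 and 3 and −3.47, −2.87 and −4.87 in Mtg16−/− 1, 2 and 3. These ratios overlapped, with a difference of 0.70 (exact permutation p = 0.4, two-sided; 0.4 adjusted over 4 ratios). That difference was 0.21 without WT 3, 1.27 without Mtg16−/− 3 and 1.61 with a pseudocount of 0.1. Thus Nr0b2 and Fgf15, both known targets of FXR, had differences of opposite sign, and of these 2 genes only Nr0b2 had groups that did not overlap.

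Gpbar1 (chr1:74278600-74279589), the membrane receptor, was listed at 0 in 5 libraries and at 0.17 TPM in Mtg16−/− 1. It was not tested, and no fold is given.

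The order of the levels was Fabp6, Slc51a, Slc51b, Nr1h4 and Slc10a2 in each of the 6 libraries. Fgf15 came next in 5 of them, and Nr0b2 passed it in WT 3. Over the 6 libraries Fabp6 (735 to 2056 TPM) did not overlap Slc51a (127 to 294 TPM), nor did Nr1h4 (41.9 to 92.0 TPM) overlap Slc10a2 (10.5 to 23.9 TPM). Slc51a and Slc51b overlapped between libraries, as did Slc51b and Nr1h4, and Fgf15 and Nr0b2. The ratio of Fabp6 to Slc10a2 TPM was 49.1, 80.7 and 60.7 in WT 1, 2 and 3 and 90.5, 111 and 82.7 in Mtg16−/− 1, 2 and 3. All 3 libraries labelled Mtg16−/− were above WT on this scale, WT 2 by little. On the log2(TPM + 1) scale the groups overlapped, with a difference of 0.58 (exact permutation p = 0.2, two-sided; 0.267 adjusted over 4 ratios), and with a pseudocount of 0.1 they did not (exact permutation p = 0.1).

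Within each genotype, the library numbered 3 was the lowest for all 6 tested genes. The labels give only replicate numbers, and whether libraries of the same number were prepared together is not given in the sources used here. Of 7 other ileum markers, 5 were also lowest in the libraries numbered 3 of both groups. The exceptions were Dmbt1, highest in WT 3, and Gcg, highest in Mtg16−/− 3. The share of all tested genes that were lowest in both libraries numbered 3 was not computed. Whether this pattern is particular to these genes is therefore unknown. Among the 5, Cubn and Naaladl1 were picked after their values were seen. Cubn, the ileal vitamin B12 receptor, was at 89.0, 33.5 and 27.9 TPM in WT 1, 2 and 3 and at 66.1, 48.4 and 21.3 TPM in Mtg16−/− 1, 2 and 3. Naaladl1, an ileal peptidase, was at 764, 508 and 348 TPM in WT and 726, 451 and 263 TPM in libraries labelled Mtg16−/−. How much ileum each crypt preparation held was not tested.

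Of these 7 ileum markers 3 had positive and 4 negative differences, 0 were called and the median was −0.094. This direction turned on single libraries: the median was 0.41 without WT 1 (6 positive, 1 negative) and 0.36 without Mtg16−/− 3 (5 positive, 2 negative), and with array weights, where 3.43% of all tested genes were called higher, it was 0.54 and 3 of the 7 were called higher. The 3 positive ones were Pyy (1.17), Gcg (1.15) and Nts (0.93), which are enteroendocrine hormones, and the most abundant, Dmbt1, was at 1401, 1791 and 2793 TPM in WT and 1328, 1671 and 1036 TPM in libraries labelled Mtg16−/−. All 16 general enterocyte markers had negative differences, with a median of −1.02, and 0 were called. Without WT 1 the median was −0.56, and with array weights 5 of the 16 were called lower, against 3.54% of all tested genes. The replicate block called 16 of the 16 lower, against 816 of 12268 genes, and 10 with no minimum, against 380 of 17505. Their summed TPM was 34430.1, 12535 and 15138 in WT 1, 2 and 3 and 13554, 7813 and 6651 in Mtg16−/− 1, 2 and 3. The most abundant was Apoa1, and the largest differences were −2.05 for Rbp2 and −1.52 for Slc2a2. None of the 16 was listed at 0. Their summed level was highest in WT 1, and their part in the differences of the bile acid genes was not tested.

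Levels were also taken relative to the mean log2 level of these 16 markers in the same library, an alternative chosen after seeing the data. The marker mean itself differed by −1.05, and by −0.60 without WT 1. This scaling therefore adds the same amount to the difference of every gene, so the sign of a relative difference says nothing particular to the bile acid genes. Nr1h4 differed by 1.33 relative to the markers, from −4.56, −2.68 and −3.64 in WT 1, 2 and 3 to −2.37, −2.27 and −2.25 in Mtg16−/− 1, 2 and 3. Without WT 1 the difference was 0.86. Relative differences were 2.03 for Fgf15, 1.39 for Fabp6, 0.81 for Slc10a2, 0.73 for Slc51a and 0.42 for Slc51b. Without WT 1 these 5 were 1.69, 0.94, 0.51, 0.50 and 0.14 in the same order.

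**Figure D2:**
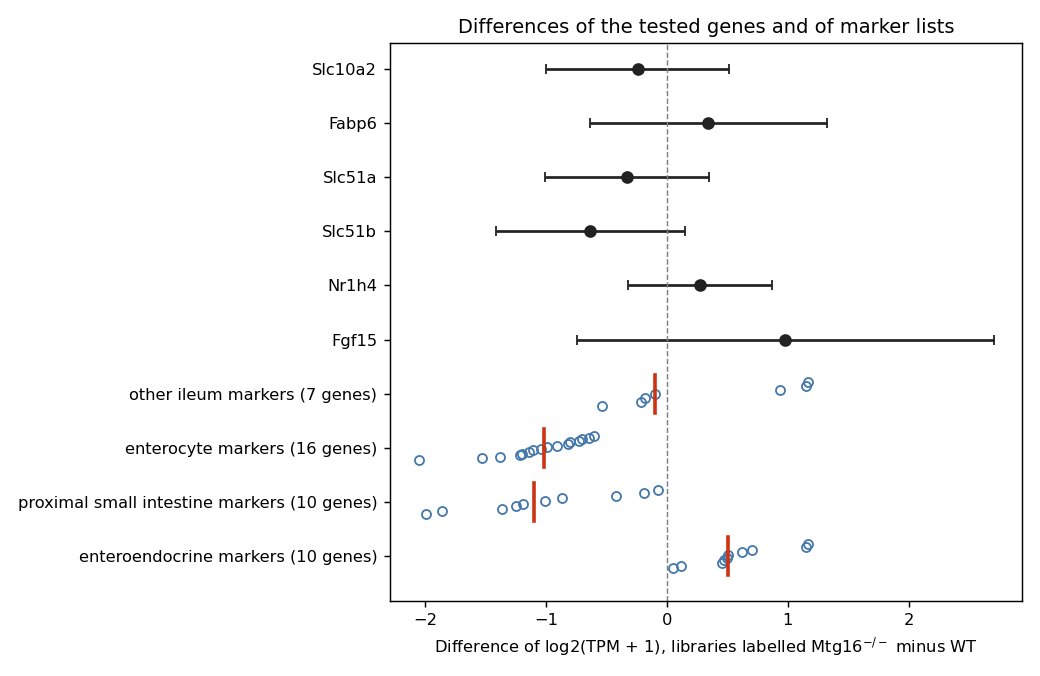
Difference of log2(TPM + 1) between libraries labelled Mtg16−/− and WT (horizontal axis). Filled points with bars are the 6 tested bile acid genes with their 95% limma intervals, open points are single genes of marker lists, and red lines are list medians. All 6 intervals include 0, while the enterocyte, proximal and enteroendocrine lists have medians of −1.02, −1.09 and 0.50.

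Markers of other gut regions and cell types were described in the same way, and 0 genes of these lists were called in the main fit. At a minimum of 5 TPM 1 enteroendocrine and 1 ileum marker were called higher, against 5 of 10062 genes. With robust moderation 1 of each list was also called higher, against 6 of 12268 genes. Both lists hold Gcg, which had the lowest limma adjusted p of each list in the main fit (0.104). The calls of the enteroendocrine and ileum lists can therefore be 1 gene counted in both. With array weights, against the same 3.43% higher and 3.54% lower, 5 proximal markers were called lower, and 6 enteroendocrine, 2 hepatocyte and 1 crypt marker higher. The replicate block called 8 of the 10 proximal markers lower, against 816 of 12268 genes, and its other calls are given at the end. All 10 proximal small intestine markers had negative differences (median −1.09), led by Fabp1 (−1.99) and Apoa4 (−1.85), and their summed TPM was 12033, 3774 and 4964 in WT 1, 2 and 3 and 2755, 1383 and 1575 in Mtg16−/− 1, 2 and 3. All 10 enteroendocrine markers, which again include Pyy and Gcg, had positive differences (median 0.50), with Gip the most abundant and summed TPM between 419 and 692. The 9 epithelium and crypt markers had a median of 0.19, with 5 positive (Lyz1 0.92, Lgr5 0.83) and 4 negative. Of 9 tested immune markers 8 were negative (median −0.38, most abundant Cd3g, −0.86, then Cd8a, −0.82), and of 5 tested stromal markers 2 were (median 0.15, Pdgfrb −0.66, Col3a1 0.31, most abundant Vim). The 4 tested hepatocyte markers were positive (median 0.56, Cyp2e1 0.90, Apoh 0.60), the most abundant, Cps1, is also made in gut, and Alb was at most 0.44 TPM. Among colon markers, Car1 was listed at 0 except in WT 2 (3.58 TPM) and Mtg16−/− 2 (11.9 TPM), and Hoxb13 and Hoxd10 were listed at 0 throughout. Summed TPM of 6 pancreatic acinar markers, led by Amy2a5, was 31.2, 10.2 and 0.17 in WT 1, 2 and 3 and 5.03, 0.43 and 0.12 in Mtg16−/− 1, 2 and 3, with negative differences for Amy2a5 (−1.61) and Pnlip (−1.08), the 2 tested. Leaving out 1 library moved several of these medians: epithelium and crypt to 0.11 (without WT 1), immune to −0.20 (without WT 2) and −0.68 (without Mtg16−/− 1), stroma to 0.24 (without WT 1) and 0.015 (without Mtg16−/− 1), and the pancreatic list to −0.67 (without WT 1, with 1 gene tested) and −2.26 (without WT 3). The part of these cells and regions in the values of the bile acid genes was not tested.

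The other lists of the bile acid pathway held no called gene in this fit, and which of them held calls in other fits is given with the alternatives at the end. Among other bile acid transporters 4 of 10 were tested, 1 positive and 3 negative (median −0.28, or −0.11 without WT 1 and −0.033 without Mtg16−/− 3). Abcc2 and Abcc3, which export conjugates, differed by −0.54 and −0.50. In bile acid synthesis and conjugation 5 of 8 were tested, 2 positive and 3 negative (median −0.30), with Cyp27a1 at −0.72, Acnat1 at −0.41 and the most abundant, Hsd3b7, at 0.0072. Cyp7a1, the rate-limiting enzyme of the liver pathway, and Cyp8b1 were listed at 0 in all 6 libraries. Of 19 tested nuclear receptors and partners of FXR 7 were positive and 12 negative (median −0.096, or −0.062 without WT 1 and −0.025 without Mtg16−/− 3). Nr1i3 (CAR) differed by −0.74 and Nr1h3 (LXRα) by −0.52, and Hnf4a, the most abundant, by −0.065. The receptor LRH-1, encoded by Nr5a2, was at 25.9, 32.2 and 33.8 TPM in WT 1, 2 and 3 and at 37.0, 42.9 and 34.4 TPM in Mtg16−/− 1, 2 and 3, a difference of 0.31 (limma adjusted p = 0.374), and was named after its values were seen. Of 13 tested targets of bile acid and xenobiotic receptors 3 were positive and 10 negative (median −0.27), with Gsta1 at −1.15 and Cyp3a13 at −1.14. Without WT 1 this list turned to 8 positive and 5 negative (median 0.10), and with array weights its median was −0.0094 and 1 of the 13 was called lower. For FGF15 signalling, its receptor Fgfr4 differed by 0.32, Malrd1, linked to FGF15 production, by −0.096, and the co-receptor Klb was under 1 TPM in every library.

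Likeness was measured as the root mean square difference of centred log2(TPM + 1) profiles over the 6 libraries. Slc10a2 and Slc51a were the most alike pair of the 6 tested genes (0.144), followed by Slc51a and Slc51b (0.198), and Slc51b and Fgf15 the least alike (1.07). Outside the 8 genes, Slc10a2 was nearest to 6330407A03Rik, Neu1 and Tram2 (0.116, 0.119 and 0.128), against a median of 0.494 over all tested genes. Fabp6 was nearest to Adcy8, Pou2af1 and Card9 (0.201, 0.233 and 0.262, median 0.633). The neighbours were chosen by their profiles, so what they share with these genes was fixed by the choice. Slc51a was nearest to Ppfia3, Gdpd3 and Il2rg (0.0392, 0.0541 and 0.0692, median 0.465), and Slc51b to Themis3, Gsn and Dusp8 (0.0978, 0.101 and 0.107, median 0.582). Nr1h4 was nearest to Mill2, 1700011H14Rik and Pik3ap1 (0.0749, 0.133 and 0.144, median 0.434). Fgf15, whose values were low and spread widely, had no close neighbour, with Gm14391, Gm10012 and Acta1 at 0.580, 0.629 and 0.689 (median 1.16).

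Promoters, from 250 bases before to 50 after the RefSeq start, were found for 7 of the 8 genes, and Fgf15 had no entry. Both strands were searched for the inverted repeat that FXR is known to bind as a dimer with RXR, AGGTCANTGACCT, and for AGGTCA, the single unit that the repeat contains. The exact repeat was in 0 of the 7 promoters and in 0.00913% of 32851 promoters. With up to 2 mismatches it was in Fabp6 alone, at 2 places, and in 1.14% of all promoters. The exact single unit was in Slc51a, Slc51b and Nr1h4, and in 16.3% of all promoters. The LRH-1 core TCAAGG, which can share letters with that unit and was added after seeing the data, was in Nr0b2 alone, at 2 places, and in 14.4% of all promoters. A match describes letters only. The promoters of the binding protein, of both exporter subunits and of Nr0b2, the gene whose groups did not overlap, are shown for their matches. The promoter of Nr1h4, which also holds a match, is not shown. It lies at chr10:89506609-89506908 (minus), inside the span given for the gene, so it belongs to an internal start. Each is written along the strand of its gene on GRCm38.p6, and capitals mark the repeat in Fabp6 (chr11:43601513-43601812, minus), the single unit in Slc51a (chr16:32487830-32488129, minus) and Slc51b (chr9:65422724-65423023, minus), and the LRH-1 core in Nr0b2 (chr4:133553126-133553425, plus).
Fabp6: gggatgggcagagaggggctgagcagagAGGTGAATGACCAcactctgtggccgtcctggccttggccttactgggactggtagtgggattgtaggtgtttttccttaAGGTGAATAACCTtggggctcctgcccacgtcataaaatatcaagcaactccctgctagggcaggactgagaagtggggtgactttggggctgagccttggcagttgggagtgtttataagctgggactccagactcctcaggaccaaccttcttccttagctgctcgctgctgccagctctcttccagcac
Slc51a: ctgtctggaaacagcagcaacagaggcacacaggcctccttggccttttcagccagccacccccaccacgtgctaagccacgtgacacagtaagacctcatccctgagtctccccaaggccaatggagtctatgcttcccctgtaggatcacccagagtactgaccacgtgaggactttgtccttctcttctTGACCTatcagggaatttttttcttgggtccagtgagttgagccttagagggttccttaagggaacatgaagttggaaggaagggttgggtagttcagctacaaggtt
Slc51b: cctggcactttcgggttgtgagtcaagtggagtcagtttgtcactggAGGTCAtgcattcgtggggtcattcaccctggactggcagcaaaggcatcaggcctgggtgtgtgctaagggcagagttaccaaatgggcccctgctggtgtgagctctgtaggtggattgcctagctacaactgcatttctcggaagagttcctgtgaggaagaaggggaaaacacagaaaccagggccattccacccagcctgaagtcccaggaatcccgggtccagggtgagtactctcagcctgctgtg
Nr0b2: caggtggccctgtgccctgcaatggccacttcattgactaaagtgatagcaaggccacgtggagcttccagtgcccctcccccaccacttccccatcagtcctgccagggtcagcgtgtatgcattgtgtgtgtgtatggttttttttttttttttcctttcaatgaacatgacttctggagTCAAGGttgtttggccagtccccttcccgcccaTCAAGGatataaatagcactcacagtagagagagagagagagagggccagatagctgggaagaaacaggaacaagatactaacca

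In GENCODE M21, Slc51a overlaps Pcyt1a and Slc51b overlaps Rasl12, each on the opposite strand, and Fgf15 overlaps Gm26793 and Gm39119. Whether strand was used in estimating TPM was not given in the sources used here, so reads of such pairs may have been shared. Pcyt1a was at 83.7, 42.7 and 55.1 TPM in WT 1, 2 and 3 and at 51.3, 36.8 and 37.3 TPM in Mtg16−/− 1, 2 and 3. The sharing of reads was not tested. Rasl12 was at most 0.81 TPM, far under Slc51b.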

How the data were processed

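All 6 deposited libraries of ribosomal RNA-depleted crypt RNA were used, 3 labelled WT and 3 labelled Mtg16−/−. The authors deposited 1 table of TPM per gene, estimated with RSEM 1.3.0. Their processing notes name cutadapt 1.9.1, STAR 2.5.2a, the mouse build mm10 and DESeq2 1.12.3, which the authors ran on counts that were not used here. Depth per library is unknown, so no interval from counts is given. The 8 genes and all lists were chosen with earlier results of these data known.

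TPM was taken to log2 with a pseudocount of 1. Genes averaging 1 TPM or more were tested with limma 3.58.1 in R 4.3.3 (moderated test with an intensity trend, two-sided), with Benjamini-Hochberg adjustment over 12268 genes and calls at an adjusted p under 0.1. Single values were tested with an exact permutation test over the 6 libraries (scipy 1.17.1). The fit was checked on simulated data, and the permutation test on small sets of fixed numbers. Named genes are the 8 genes, in each of 15 lists every called gene (up to 6) or otherwise the 2 tested genes with the largest difference and the most abundant gene, all genes of a marker list where its summed level is given, and for each tested member the 3 genes nearest in profile. 1 item that this rule names is not reported here. Alternatives were another pseudocount, other minimums, rescaling, quantile normalization, other moderation, array weights, a replicate block and leaving out each library. Added after seeing the data were a minimum of 0.5, the block with no minimum, levels relative to enterocyte markers and the LRH-1 motif. Promoters came from RefSeq on GRCm38.p6, of which mm10 is the same assembly, and overlaps from GENCODE M21.

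Summed levels are of these markers. Enterocyte: Alpi, Vil1, Fabp2, Apoa1, Apob, Mttp, Sis, Anpep, Slc5a1, Slc2a2, Ace, Dpp4, Treh, Rbp2, Slc15a1 and Cdhr5. Proximal: Pdx1, Gata4, Onecut2, Lct, Cybrd1, Slc40a1, Fabp1, Creb3l3, Apoa4 and Npc1l1. Enteroendocrine: Chga, Chgb, Neurod1, Gcg, Pyy, Cck, Sct, Tph1, Gip and Sst. Stroma: Col1a1, Col1a2, Col3a1, Pdgfra, Pdgfrb, Vim, Des, Acta2, Myh11 and Pecam1. Pancreas: Prss2, Cpa1, Cel, Pnlip, Amy2a5 and Cela3b.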

Additional observations from a re-analysis of the deposited data

How the results depend on the processing

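Of 120 alternative values of the differences of 7 genes (Gpbar1, listed at 0 in all WT libraries, has none), 7 turned in sign. Of these, 3 were fixed by the scaling: relative to enterocyte markers, whose mean differed by −1.05, every gene shifts alike, and Slc10a2, Slc51a and Slc51b became 0.81, 0.73 and 0.42. With array weights Slc10a2 and Slc51a turned to 0.17 and 0.012, and Fabp6, Slc51b and Fgf15 moved to 0.84, −0.31 and 1.995. Quantile normalization moved Slc51a to −0.20. The pseudocount of 0.1 moved Nr0b2 to −2.56 and Fgf15 to 1.89. Leaving out 1 library gave −0.55 to 0.038 for Slc10a2 (positive without Mtg16−/− 3) and −0.0017 to 0.73 for Fabp6 (negative without WT 3), and −0.586 to −0.108 for Slc51a, −0.978 to −0.315 for Slc51b, 0.0065 to 0.456 for Nr1h4 and 0.331 to 1.73 for Fgf15. The cause of these changes was not tested. Fgf15 could not be tested at a minimum of 5. The 4 ratios kept their sign in all 28 alternatives, and of 239 alternative list medians 6 turned in sign. The ileum median turned to 0.00089 with quantile normalization and 0.54 with array weights, and leaving out 1 library gave −0.397 to 0.409 (positive without WT 1 or Mtg16−/− 3). The receptor target median ran from −0.563 to 0.104 (positive without WT 1), and the FGF15 receptor median was −0.029 with no minimum. Leaving out 1 library gave medians of −0.396 to −0.033 for transporters, −0.157 to −0.025 for nuclear receptors, −0.679 to −0.203 for immune, 0.015 to 0.239 for stroma, 0.107 to 0.244 for crypt, −1.36 to −0.560 for enterocyte and −2.26 to −0.670 for pancreatic markers. With array weights the immune median was −0.179, the transporter median −0.162 and the pancreatic median −0.340. The transporter median was −0.050 with no minimum and −0.502 at a minimum of 5. The synthesis median was −0.154 with no minimum, and the hepatocyte median 0.869 with a pseudocount of 0.1. At a minimum of 5 the pancreatic list had no tested gene.

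The 4 calls (2 higher, 2 lower) became 15 at a minimum of 5, 20 with robust moderation, 855 with array weights (421 higher, 434 lower) and 1 with median-ratio rescaling (1 higher, 0 lower). They became 0 with no minimum, with quantile normalization and with no intensity trend, where limma listed 2187, 1854 and 1754 genes at an unadjusted p under 0.05, and 0 at an adjusted p under 0.05. Leaving out 1 library gave 0 to 40 calls.

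The replicate block gave 1201 calls (385 higher, 816 lower), and 521 when no minimum was set. Slc51b (−0.63, adjusted p = 0.0402, range over its alternatives 0.0402 to 0.766) and Fgf15 (0.98, adjusted p = 0.0713, range 0.0713 to 0.857) passed the threshold with the block but not with the block and no minimum (adjusted p = 0.1001 and 0.143, the same ranges), where Nr0b2 did (−1.13, adjusted p = 0.0548, range 0.0548 to 0.590). The block called 16 of 16 enterocyte and 8 of 10 proximal markers lower (10 and 5 with no minimum), and 4 enteroendocrine, 3 ileum, 2 crypt and 1 hepatocyte marker higher (4, 2, 0 and 0 with no minimum). Gcg and Pyy were called with the block at the minimum of 1 and are counted in both the enteroendocrine and the ileum list. It called 5 pathway genes lower: 1 of bile acid synthesis, 2 nuclear receptors and 2 receptor targets (0, 2 and 2 with no minimum). The samples share only a number: deviations from the group means correlated at 0.429, 0.0753 and 0.237 for replicates 1, 2 and 3, and WT 2 correlated best with Mtg16−/− 3 (0.198). The unknown depth limits what can be said of Nr0b2, Fgf15 and Gpbar1, whose levels are low.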
